A study of Petromyzon marinus with 4 samples.

Results

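The WIF1 cells of the female transformer gonad were barcodes of 1 sea lamprey library that held at least 250 genes, 1 count of WIF1 and 5 times 375 counts, 375 being the highest background median of the 4 libraries, at least 1 of the 3 genes RBP4, VEGFC and LOC116940689, no count of UPK3A, and MIOX below 2000 CPM (the count scaled to the barcode's total). Of 30598 called barcodes in that library, 2591 met the rule, which is 8.47% (exact 95% binomial interval 8.16 to 8.79%; intervals here cover counting error only), and the whole series held 111067 called barcodes. All other 28007 called barcodes of the library are the background of the description. Beside their marker genes the WIF1 cells were higher than these in collagen VI chains, SPARC, the homeobox gene PRRX1 and several secreted modulators of TGF-beta signalling. Collagen VI, SPARC and PRRX1 were not particular to them: barcodes with UPK3A and RBP4 and a cluster low in WIF1 held them too. Of the TGF-beta genes, FST and LTBP1 were less than 2-fold apart between WIF1 cells and UPK3A and RBP4 barcodes. GDF10 was more than 2-fold higher in WIF1 cells than in those barcodes. TGFB2 was too, but not once barcodes rich in oocyte genes were left out of them. It stood higher in barcodes with TNNC1 and WNT6 than in WIF1 cells.

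WIF1 encodes a secreted protein that binds Wnt ligands and keeps them from their receptors. VEGFC is the ligand that drives growth of lymphatic and other vessels through FLT4, and RBP4 carries retinol outside the cell. UPK3A is a uroplakin of surface epithelia, and MIOX is an enzyme of renal tubule cells. In gonads of jawed vertebrates the stroma is the mesenchymal tissue that lays down fibrillar and beaded collagens around the germ cells and their supporting cells. Roles given here are those known from mice and humans, and LOC116940689 has no description in the gene table used.

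The study made single-cell 3′ RNA libraries from gonads of wild-caught wildtype sea lampreys of unknown age. They came from 1 female transformer library, 1 male transformer library and 2 larval libraries of undifferentiated gonads, in which sex was not determined. A transformer is a lamprey that has gone through metamorphosis, and the labels call its sex determined. How many animals gave each library is not given in the sources used here, and with 1 library per transformer sex the differences below have no replicate check.

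Beside the 30598 female barcodes, 40223 male and 19654 and 20592 larval barcodes were called, and the median depth per library was 4714 to 7475 counts. A WIF1 cell had a median of 3730 counts and 999 genes, against 4816 counts and 1037 genes in the other female barcodes. Mitochondrial genes made up 0.882% of the counts of WIF1 cells and 1.496% of those of the others. Of the WIF1 cells, 1 carried a barcode that was also called in the male library and 0 one called in a larval library. A doublet score marked 337 WIF1 cells (13.01%) and 6.33% of the other barcodes; doublets were kept, and values without them are given where they matter.

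The genes of the rule are described first, without any test, because their counts chose the cells. Levels of a set of barcodes are the summed count over the set's total, also in CPM. WIF1 itself stood at 625 CPM in WIF1 cells and 14.5 CPM in the other barcodes. VEGFC had 77.4 CPM and was detected in 28.0% of WIF1 cells, against 8.27 CPM and 4.32% of the others. RBP4 stood at 1690 CPM in WIF1 cells and 333 CPM in the others, and a count of it was found in 88.0% and 24.9% of the barcodes. LOC116940689 had 1323 CPM and was detected in 86.4% of WIF1 cells, against 371 CPM and 40.0% of the others. These 2 levels were not low in all other barcodes. Barcodes with UPK3A and RBP4 held RBP4, for which they were chosen, at 2068 CPM, and LOC116940689 at 702 CPM in 88.2% of them. Barcodes with MIOX at or above 2000 CPM held LOC116940689 at 726 CPM, in 94.1% of them. MIOX, capped by the rule, had 155 CPM in WIF1 cells and 2429 CPM in the others. Most WIF1 cells thus met the marker condition through RBP4 and LOC116940689, and few through VEGFC: 1363 cells held RBP4 and LOC116940689 without VEGFC, 578 held all 3, 252 held RBP4 alone, 250 LOC116940689 alone and 12 VEGFC alone.

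**Figure D1:**
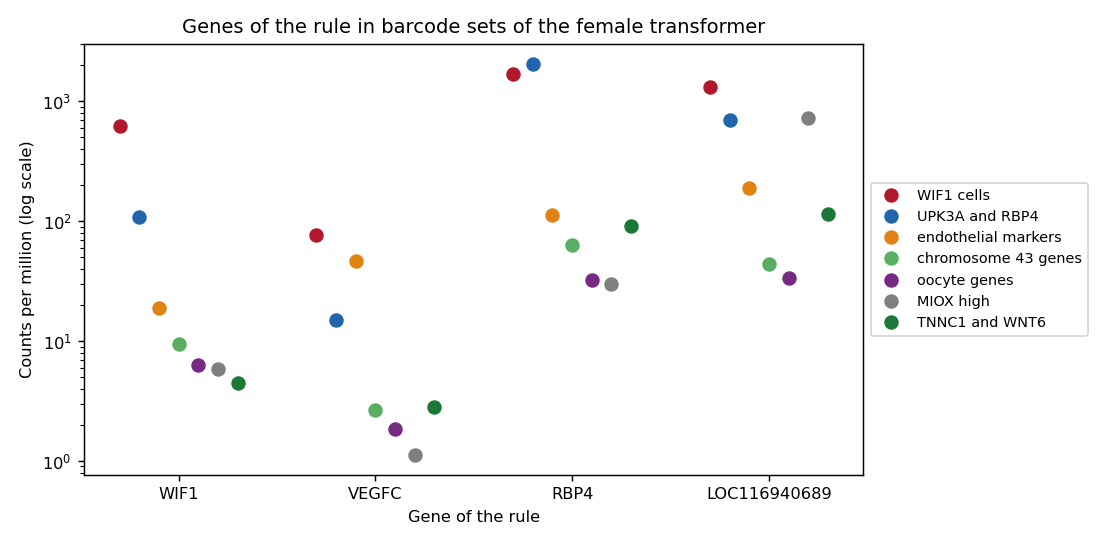
CPM (log axis) of WIF1, VEGFC, RBP4 and LOC116940689 in the WIF1 cells and in 6 other barcode sets of the female transformer, 1 point per set. WIF1 stood at 625 CPM in WIF1 cells, at 109 CPM in barcodes with UPK3A and RBP4, and below 20 CPM in the other sets drawn. The TNNC1 and WNT6 set was chosen outside the WIF1 cells.

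Because 1 count of WIF1 was enough for the rule, its share was also measured in sets chosen by other genes. WIF1 was detected in 4.94% of barcodes with MIOX at or above 2000 CPM (median depth 13957 counts), in 2.08% of barcodes with TNNC1 and WNT6 (4600 counts) and in 6.54% of barcodes with at least 2 of the 4 endothelial markers FLT1, FLT4, TIE1 and VWF (4261 counts). After thinning every barcode to the count minimum these shares were 1.01%, 0.865% and 2.49%. The TNNC1 and WNT6 set was chosen outside the WIF1 cells, 122 of which held both genes, and outside the UPK3A and RBP4 barcodes. Its WIF1 share is lowered by that choice. Barcodes with at least 20% of their counts from 5 genes of chromosome 43 (5396.5 counts) held WIF1 in 3.17% before and 1.29% after thinning. Those with at least 1% from 5 genes of the oocyte-like programme (20134 counts) held it in 9.88% and 1.35%. WIF1 cells made up 116 barcodes of the chromosome 43 set and 10 of the oocyte-like set. The WIF1 cells, at 100% by rule, came to 72.0% after thinning, and barcodes with UPK3A and RBP4 (6184 counts) had 17.0% after thinning and 32.7% before. Barcodes ranked 40000 to 80000 by depth, with a median of 311 counts, held WIF1 at 67.3 CPM, above the 14.5 CPM of the other called barcodes and below the 625 CPM of the WIF1 cells.

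The edges of the rule show what it left out. Of 3771 female barcodes with WIF1, 306 had none of the 3 marker genes, 707 of the rest were set aside for UPK3A and a further 167 for MIOX. The 310 barcodes excluded with exactly 1 count of UPK3A had COL6A1 at 367 CPM, near the 387 CPM of the WIF1 cells. They held RBP4 at 1922 CPM and WIF1 at 506 CPM. The 384 with 2 or more UPK3A counts had WIF1 at 233 CPM and COL6A1 at 287 CPM. The 167 excluded for MIOX were deep (median 16532 counts) and low in stromal genes, with COL6A1 at 28.5 CPM and PRRX1 at 6.08 CPM. The 291 barcodes with WIF1 and UPK3A at 0 that held none of the 3 markers had COL6A1 at 72.4 CPM and TNNC1 at 1097 CPM. A last set, 1983 barcodes with RBP4 and LOC116940689 but no WIF1 count and no UPK3A, held COL6A1 at 218 CPM, PRRX1 at 33.1 CPM and SPARC at 1938 CPM.

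Counted over all genes with at least 50 counts in both sets together, 701 of 16568 (4.23%) were at least 2-fold higher in WIF1 cells than in the other barcodes and 1726 (10.4%) at least 2-fold lower. The median log2 ratio over these genes was -0.02. Among 2665 genes held by at least 10% of the WIF1 cells, 240 (9.01%) were at least 2-fold higher. The 25 with the highest ratio ran from log2 2.34 to 4.32, and 5 of them carry a symbol: ENPP2, PRRX1, COL6A2, FST and COL6A1. Because these genes were ranked on the comparison that the rule made, their ratios describe the cells and were given no test.

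COL6A1 and COL6A2, chains of the beaded collagen VI that sits around cells, had 387 and 334 CPM in WIF1 cells and 72.6 and 56.4 CPM in the other barcodes. Their log2 ratios were 2.41 (2.37 to 2.46) and 2.57 (2.51 to 2.62). A count of COL6A1 was found in 71.1% of WIF1 cells and 18.3% of the others, and 83.5% of WIF1 cells held COL6A1 or COL6A2, against 26.1%. The gene table places these genes with 1 gene between them. COL6A3, the third chain, had 21.9 CPM in WIF1 cells and 7.47 CPM in the others. SPARC, a protein that binds collagen and calcium, had 2067 CPM in WIF1 cells, of which 95.9% held a count, and 620 CPM in the others, of which 49.6% did.

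PRRX1, a homeobox factor of mesenchyme, had 87.7 CPM in WIF1 cells and 11.3 CPM in the others (log2 2.95, 2.85 to 3.06). ENPP2, which makes the signalling lipid lysophosphatidic acid outside the cell, had 103 CPM in WIF1 cells and 11.4 CPM in the others (log2 3.17, 3.07 to 3.26). FST, the activin antagonist follistatin, had 29.4 CPM in WIF1 cells and 5.11 CPM in the others (log2 2.53, 2.35 to 2.70). The gene with the highest ratio was LOC116952517, which has no symbol, at 96.1 CPM in WIF1 cells, 30.9% of which held it, and 4.83 CPM in the others. These 25 genes were held by 10.1 to 71.1% of the WIF1 cells, so most of them were detected in a minority of cells at this depth.

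**Figure D2:**
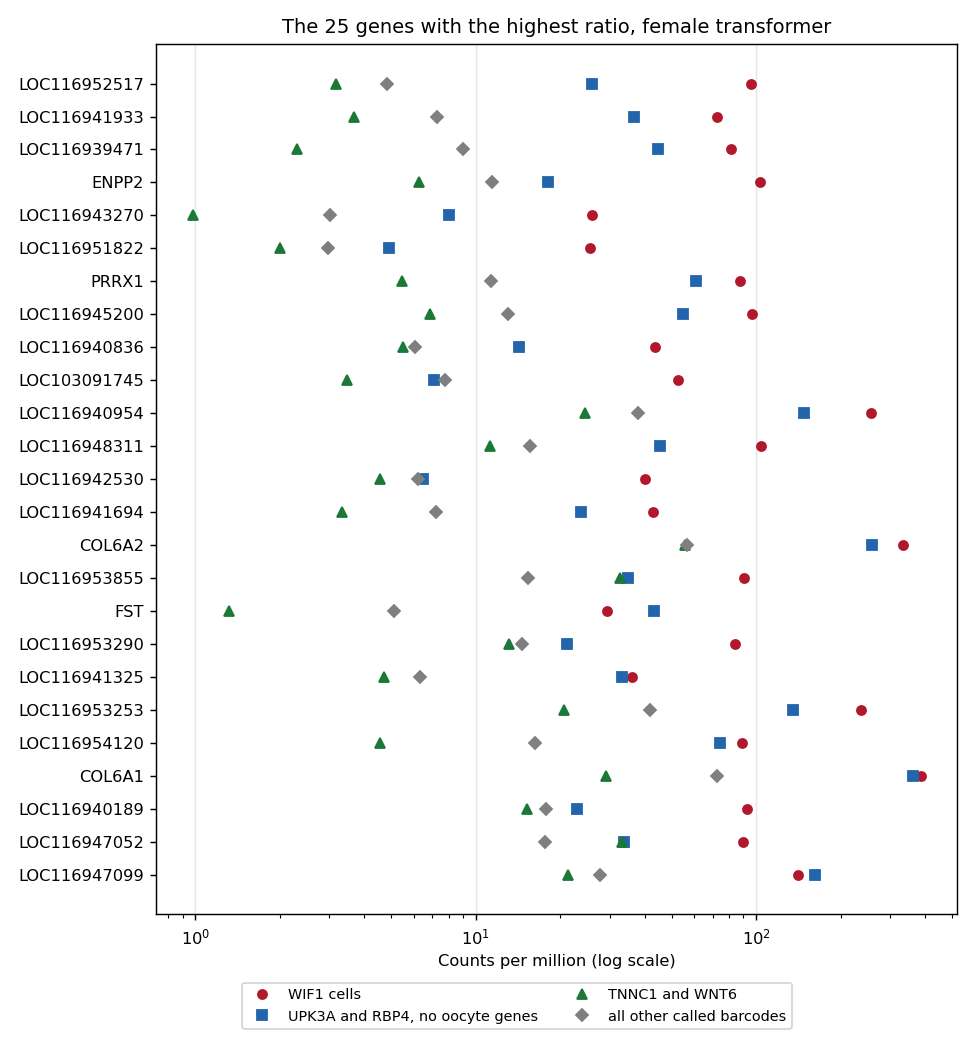
CPM (log axis) of the 25 genes with the highest ratio, in WIF1 cells, in UPK3A and RBP4 barcodes without oocyte-gene barcodes, in TNNC1 and WNT6 barcodes and in all other called barcodes of the female transformer. ENPP2 stood at 103 CPM in WIF1 cells, at 18.1 CPM in the UPK3A barcodes and at 6.26 CPM in the TNNC1 barcodes.

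The stromal marker list held 39 genes, of which 12 were found by symbol. Of these, 9 were at least 2-fold higher in WIF1 cells, 1 was at least 2-fold lower and 2 were not 2-fold apart, where 4.23% of all genes were higher and 10.4% lower. The median log2 ratio of the list was 1.57 against -0.02 over all genes. PDGFRA, the receptor for platelet-derived growth factors on mesenchymal cells, had 9.08 CPM in WIF1 cells and 4.46 CPM in the others. COL14A1, a fibril-associated collagen, had 13.5 CPM in WIF1 cells and 5.07 CPM in the others. POSTN (67 counts in WIF1 cells) and TWIST2 (11 counts) were also past 2-fold, on few counts. The member that was lower was VIM, the mesenchymal intermediate filament vimentin, with 1.17 CPM in WIF1 cells and 2.58 CPM in the others, or 15 counts in all WIF1 cells. Without the barcodes marked as doublets, 2254 WIF1 cells were left, 873 of all genes were at least 2-fold higher, and the number of stromal genes past 2-fold was again 9.

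Among 16 TGF-beta and BMP genes found, 5 were at least 2-fold higher and 1 was lower, against 4.23% and 10.4% of all genes, and the median log2 ratio was 0.37. GDF10, a secreted TGF-beta family member, had 22.6 CPM in WIF1 cells and 1.39 CPM in the others (log2 4.03, 3.79 to 4.27). LTBP1, which holds latent TGF-beta in the matrix, had 129 CPM in WIF1 cells and 42.2 CPM in the others. TGFB2, a TGF-beta ligand, had 37.6 CPM in WIF1 cells and 15.6 CPM in the others. TGFB2 stood at 46.6 CPM in TNNC1 and WNT6 barcodes. In UPK3A and RBP4 barcodes it stood at 14.7 CPM, and at 20.2 CPM without the oocyte-gene barcodes. TWSG1, an extracellular modulator of BMPs, had 120 CPM in WIF1 cells and 49.7 CPM in the others. BMPER, which binds BMPs, was lower, with 15.6 CPM in WIF1 cells and 37.2 CPM in the others.

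The Wnt genes other than WIF1 were counted in separate lists. Of 11 Wnt ligand and secretion genes, 0 were 2-fold higher and 2 were lower, against 4.23% and 10.4% of all genes, and the median log2 ratio was -0.50. The ligand WNT6 had 17.6 CPM in WIF1 cells and 36.1 CPM in the others. In the receptor and transduction list 3 of 9 were at least 2-fold higher, against 4.23% of all genes, with a median log2 ratio of 0.42. These were AXIN1, the receptor FZD4 and the Wnt co-receptor RYK. AXIN1, a scaffold of beta-catenin destruction, had 13.5 CPM in WIF1 cells and 4.79 CPM in the others. FZD4 had 5.48 CPM in WIF1 cells and 2.09 CPM in the others, and RYK 4.15 and 1.66 CPM. UPK3A and RBP4 barcodes without oocyte-gene barcodes held AXIN1 at 6.10 CPM, FZD4 at 4.35 CPM and RYK at 4.21 CPM. Of 4 Wnt target genes none passed 2-fold in either direction, and among them LGR5 had 30.6 CPM in WIF1 cells and 57.7 CPM in the others. CTNNB1, beta-catenin itself, had 124 CPM in WIF1 cells and 64.7 CPM in the others, just under 2-fold.

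Of 7 genes on the VEGF and angiopoietin list beside VEGFC, 2 were at least 2-fold higher, PDGFC and PDGFRA, against 4.23% of all genes. FLT4, the receptor of VEGFC, had 7.75 CPM in WIF1 cells and 11.5 CPM in the others, and 0 of 6 endothelial markers with enough counts passed 2-fold in either direction. Their summed level was 41.6 CPM in WIF1 cells and 51.1 CPM in the others, and none of the endothelial markers found was at 0. The platelet-derived growth factor PDGFC had 6.96 CPM in WIF1 cells and 1.87 CPM in the others. UPK3A and RBP4 barcodes without oocyte-gene barcodes held PDGFC at 6.10 CPM. Apart from RBP4, 0 of 11 retinoid genes with enough counts passed 2-fold, and their median log2 ratio was -0.03. The retinoic acid receptor RARB, for example, had 36.8 CPM in WIF1 cells and 26.7 CPM in the others.

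In the gonad somatic list 3 of 8 genes were at least 2-fold higher, FST, WT1 and FSTL1, and 1 was lower, against 4.23% and 10.4% of all genes. WT1, a zinc finger factor of the gonadal ridge and the mesothelium, had 7.04 CPM in WIF1 cells and 1.77 CPM in the others, with a count in 3.32% of WIF1 cells. FSTL1, a secreted relative of SPARC and follistatin, had 31.7 CPM in WIF1 cells and 11.2 CPM in the others. These 3 were not particular to WIF1 cells. In UPK3A and RBP4 barcodes without oocyte-gene barcodes WT1 stood at 6.73 CPM, FSTL1 at 34.7 CPM and FST at 43.3 CPM. EMX2 had 6.81 CPM in WIF1 cells and 6.03 CPM in the others. Of 8 steroid genes 1 was higher and 1 lower. STAR, which brings cholesterol into mitochondria, had 1.41 CPM in WIF1 cells and 0.534 CPM in the others, but on 18 counts in WIF1 cells and with a count in 0.347% of WIF1 cells and 0.296% of the others. CYP19A1, aromatase, had 1.88 and 1.56 CPM. The lower one was POR, the electron donor of cytochrome P450 enzymes, with 21.8 CPM in WIF1 cells and 45.6 CPM in the others. IGFBP7, a secreted binder of insulin-like growth factors, had 1416 CPM in WIF1 cells and 391 CPM in the others.

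The remaining lists are read against the same shares of all genes, 4.23% higher and 10.4% lower. Of 8 basement membrane genes 1 was higher, FRAS1, with 21.8 CPM in WIF1 cells and 6.66 CPM in the others. FRAS1 stood at 17.2 CPM in UPK3A and RBP4 barcodes without oocyte-gene barcodes. Of 6 matrix protease genes 2 were higher, and RECK, a membrane inhibitor of matrix proteases, had 177 CPM in WIF1 cells and 80.4 CPM in the others. RECK stood higher still in TNNC1 and WNT6 barcodes, at 309 CPM, and lower in UPK3A and RBP4 barcodes, at 52.6 CPM. Of 7 hedgehog, Notch and FGF genes 1 was higher, the Notch target HES1, with 66.7 CPM in WIF1 cells and 30.5 CPM in the others. HES1 stood higher still in UPK3A and RBP4 barcodes, at 117 CPM, and lower in TNNC1 and WNT6 barcodes, at 18.7 CPM. Of 5 Wnt antagonists beside WIF1, 1 was higher and 1 lower, SOSTDC1 and TRABD2B, on 9 and 11 counts in WIF1 cells. Of 4 mesothelial genes beside UPK3A, which is 0 by rule, WT1 was higher and UPK1A lower, with UPK1A at 6.26 CPM in WIF1 cells and 20.5 CPM in the others. Of 11 complement and plasma protein genes 2 were lower, APOB and TFPI2, and of 5 stress genes 0 passed 2-fold. Of 3 insulin-like growth factor genes IGFBP7 was higher and IGFBP3 lower.

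Markers of other cells were measured in the same sums, where 4.23% of all genes were higher and 10.4% lower. Of 10 renal tubule genes, 8 were at least 2-fold lower, MIOX by rule among them, and the summed level of the other 9 was 206 CPM in WIF1 cells and 689 CPM in the others. The rule kept barcodes with MIOX at or above 2000 CPM out of the WIF1 cells, while the others included 3682 of them. The low level of the other tubule genes thus partly follows from the rule too. Of 21 germ cell genes, 8 were lower and 1, NANOS1, was higher, with 169 CPM in WIF1 cells and 78.2 CPM in the others. NANOS1 was not particular to WIF1 cells, with 241 CPM in TNNC1 and WNT6 barcodes and 135 CPM in UPK3A and RBP4 barcodes. The germ cell genes summed to 201 CPM in WIF1 cells and 136 CPM in the others, most of it NANOS1. Their median log2 ratio was -0.59. Of 3 muscle genes TNNC1 was lower, with 221 CPM in WIF1 cells and 444 CPM in the others. Blood and immune genes (3 found) and neural genes (4 found) had 0 past 2-fold, with sums of 17.9 and 20.03 CPM in WIF1 cells and 13.8 and 18.4 CPM in the others. Of 20 cell cycle genes, 6 were lower and 0 higher, led in counts by CCNB2, the mitotic cyclin, with 69.8 CPM in WIF1 cells and 317 CPM in the others. Summed, these genes stood at 234 CPM in WIF1 cells, 563 CPM in the others and 264 CPM in TNNC1 and WNT6 barcodes. In UPK3A and RBP4 barcodes the sum was 1714 CPM, and 224 CPM without the oocyte-gene barcodes. Beside UPK3A, no cell type marker found was at 0 in WIF1 cells, and the part of other cell types in these levels was not tested.

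Among the 10 genes with the lowest ratio, APOC3, an apolipoprotein of lipid-carrying particles, had 27.3 CPM in WIF1 cells and 248 CPM in the others (log2 -3.18). The 9 others have no symbol. LOC116958516 and LOC116956104 were low at 117 and 101 CPM in WIF1 cells, against 588 and 589 CPM in the others. Those values turn on the UPK3A condition: with it left out, their log2 ratios were 0.53 and 0.42. With equal weight per barcode both log2 ratios were -1.32. Others of the 10 moved with the MIOX condition: with WIF1 cells held to MIOX at 0, APOC3 had log2 -5.26 and LOC116957586 -5.99.

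WIF1 cells were not alike. As a description with no test, since WIF1 is a gene of the rule, they were divided by WIF1 count into 938 cells with 1, 821 with 2 or 3 and 832 with 4 or more, with median depths of 3895, 3459 and 3905.5 counts. COL6A1 stood at 274, 417 and 498 CPM in this order. PRRX1 stood at 52.8, 95.4 and 124 CPM, ENPP2 at 66.4, 115 and 136 CPM, and FST at 14.7, 32.8 and 44.5 CPM. TNNC1, which marks another somatic population, stood at 327, 158 and 148 CPM. Barcodes marked as doublets made up 12.6%, 14.6% and 11.9% of the 3 groups. Without them, a choice made after the data were seen, COL6A1 stood at 302, 468 and 560.03 CPM, PRRX1 at 60.001, 107 and 142 CPM, and TNNC1 at 297, 88.6 and 36.6 CPM. Of the 2829 TNNC1 counts in WIF1 cells, 998 lay in the 105 WIF1 cells of cluster 21. More of them, 1478, lay in the 389 WIF1 cells outside clusters 2, 6, 9, 11 and 21, of which 22.9% were marked as doublets. The clusters are described further on. With doublets kept, PDGFRA, at 10.9, 9.93 and 6.07 CPM on 55, 36 and 25 counts, did not follow the other stromal genes.

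VEGFC split the cells less. In the 726 WIF1 cells with a VEGFC count WIF1 stood at 742 CPM and COL6A1 at 458 CPM, and in the 1865 without one at 579 and 359 CPM. RBP4 was 1695 CPM with VEGFC and 1688 CPM without. TNNC1 was 132 CPM with VEGFC and 256 CPM without it.

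Clusters of all called female barcodes, made without the 6 genes of the rule, placed the WIF1 cells in 32 of 36 clusters. Cluster 6 held 1365 of them (52.7%) and cluster 9 held 380 (14.7%). WIF1 cells made up 74.3% of cluster 6 and 27.5% of cluster 9. Since clusters were built on these cells' genes, their gene differences are a description. In cluster 6 the WIF1 cells had WIF1 at 1045 CPM, LOC116940689 at 2309 CPM, GDF10 at 43.1 CPM, FST at 52.6 CPM and CCN2, a matricellular growth factor modulator, at 598 CPM. In cluster 9 WIF1 stood at 696 CPM, LOC116940689 at 801 CPM, GDF10 at 12.7 CPM, FST at 20.3 CPM and CCN2 at 75.2 CPM.

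Cluster 9 was the higher of the pair in VIT, a matrix protein with von Willebrand domains, at 721 CPM against 37.4 CPM in cluster 6. It was also higher in ITGA11, a collagen-binding integrin chain, at 114 CPM against 40.2 CPM, and in POSTN, at 30.4 CPM against 0.788 CPM. Those POSTN values rest on 36 and 4 counts. IGFBP7 stood at 3898 CPM in cluster 9 and 1698 CPM in cluster 6. Several stromal genes lay closer together, with COL6A1 at 631 CPM in cluster 9 and 559 CPM in cluster 6. PRRX1 stood at 144 CPM in cluster 9 and 133 CPM in cluster 6, and VEGFC, a gene of the rule, at 151 and 113 CPM. COL6A3 was further apart, at 13.5 CPM in cluster 9 and 32.3 CPM in cluster 6, on 16 and 164 counts.

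**Figure D3:**
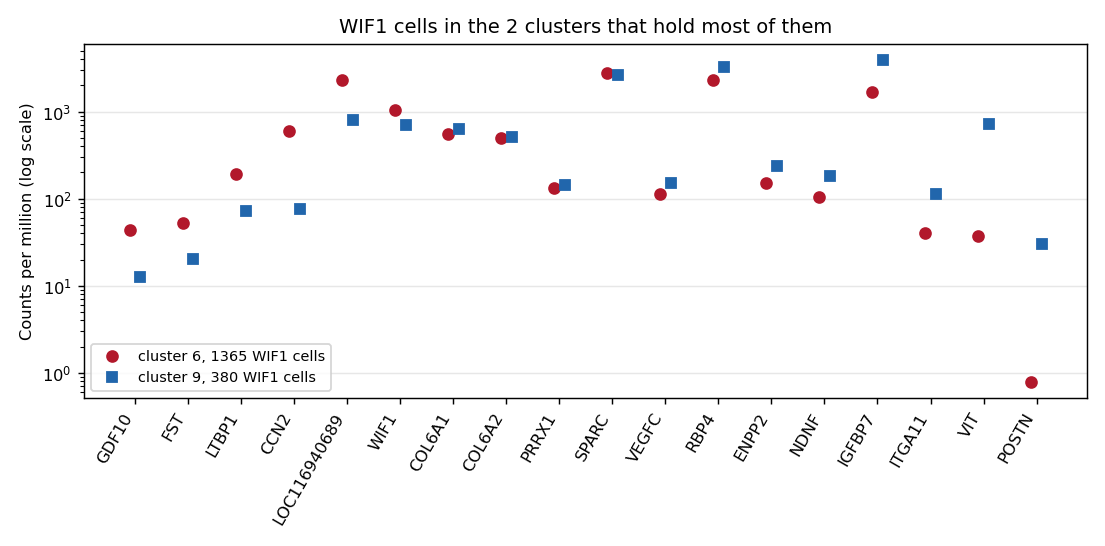
CPM (log axis) of 18 genes in the 1365 WIF1 cells of cluster 6 and the 380 of cluster 9, 1 point per gene and cluster. GDF10, FST, LTBP1, CCN2 and LOC116940689 were higher in cluster 6, and VIT, POSTN, ITGA11 and IGFBP7 in cluster 9.

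The smaller groups stood apart in doublet marks. Of the WIF1 cells in clusters 6 and 9, 1 in each was marked as a doublet. In cluster 11 the share was 78.1% of 192 and in cluster 21 it was 90.5% of 105, with median depths of 6649.5 and 7286 counts against 3346 in cluster 6. The WIF1 cells of cluster 21 held TNNC1 at 1276 CPM, beside COL6A1 at 304 CPM, and those of cluster 6 held TNNC1 at 36.2 CPM. Cluster 2, in which 1312 of 2421 barcodes belonged to the UPK3A and RBP4 set, held 160 WIF1 cells, with COL6A1 at 347 CPM, WIF1 at 223 CPM and ENPP2 at 13.1 CPM. The other 389 WIF1 cells lay elsewhere, and 22.9% of them were marked as doublets. Restricted to clusters 6 and 9, a choice made after the data were seen, 1349 genes were at least 2-fold higher and 2878 at least 2-fold lower than in the other barcodes.

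The WIF1 cells were set beside the 2059 barcodes with UPK3A and RBP4. Of these, 102 held at least 1% of their counts from 5 genes of the oocyte-like programme and carried 28.2% of the set's counts, so the comparison was also made without them, with 1957 barcodes left. Of 11322 genes with enough counts, 574 (5.07%) were at least 2-fold higher and 1391 (12.3%) at least 2-fold lower in WIF1 cells than in the whole set. Without the oocyte-gene barcodes these were 455 (4.4%) and 223 (2.16%) of 10347. Of the 25 genes with the highest ratio, 18 were at least 2-fold higher in WIF1 cells than in all UPK3A and RBP4 barcodes, where 5.48% of genes held by at least 10% of WIF1 cells were. Without the oocyte-gene barcodes the number was 12, where 3.34% of such genes were. The 25 had been ranked against all other barcodes, these among them, so both numbers partly follow from that choice. The next values are for UPK3A and RBP4 barcodes without the oocyte-gene barcodes. Collagen VI differed little in that comparison: COL6A1 had 387 CPM in WIF1 cells and 361 CPM in those barcodes, and COL6A2 334 and 257 CPM. FST was lower in WIF1 cells, with 29.4 CPM against 43.3 CPM, and so was SPARC, with 2067 CPM against 3227 CPM. PRRX1 had 87.7 CPM in WIF1 cells against 60.8 CPM, LTBP1 129 CPM against 146 CPM and GDF10 22.6 CPM against 7.29 CPM. Of those among the 25 genes that carry a symbol, ENPP2 differed most, with 103 CPM in WIF1 cells against 18.1 CPM (log2 2.50). In the whole set, oocyte-gene barcodes included, COL6A1 stood at 260 CPM, COL6A2 at 186 CPM and PRRX1 at 43.8 CPM. FST stood there at 31.7 CPM and ENPP2 at 14.1 CPM.

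The 3897 barcodes with TNNC1 and WNT6 were chosen outside the WIF1 cells and the UPK3A and RBP4 barcodes. Against them, 585 of 11142 genes (5.25%) were at least 2-fold higher in WIF1 cells and 431 (3.87%) at least 2-fold lower. All 25 genes were at least 2-fold higher in WIF1 cells, where 7.35% of the genes held by at least 10% of WIF1 cells were. The 25 were ranked against a background that includes these barcodes, so that number partly follows from the choice of genes. ENPP2 had 103 CPM in WIF1 cells and 6.26 CPM in TNNC1 and WNT6 barcodes, PRRX1 87.7 and 5.43 CPM, and FST 29.4 and 1.32 CPM. COL6A1 had 387 CPM in WIF1 cells and 29.2 CPM in those barcodes. WIF1 cells with both TNNC1 and WNT6 numbered 122, with a median depth of 7242.5 counts, COL6A1 at 200.05 CPM and TNNC1 at 1611 CPM.

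Over all 30598 called female barcodes the genes most like WIF1, by Pearson correlation of log-scaled counts, were RBP4 (0.478), LOC116938527 (0.463), LOC116952517 (0.459), LOC116942816 (0.457) and LOC116940954 (0.439). The barcodes share a library and differ in depth, and RBP4 was part of the rule. Within the 2591 WIF1 cells LOC116942816 had 0.474 and LOC116938527 0.424.

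Collagen VI was also high where WIF1 was low. Cluster 18, named here after its values were seen, held 341 barcodes, of which 15 were WIF1 cells, with WIF1 at 16.5 CPM and RBP4 at 124 CPM. Its COL6A1 stood at 1108 CPM, PRRX1 at 111 CPM and SPARC at 8581 CPM, and 11 genes of the stromal list were at least 2-fold higher than in all other female barcodes. Over all barcodes of cluster 6, COL6A1 stood at 535 CPM, PRRX1 at 126 CPM and SPARC at 2850.2 CPM, and 6 genes of that list were at least 2-fold higher. Cluster 9 as a whole held COL6A1 at 889 CPM, PRRX1 at 137 CPM and SPARC at 3828 CPM. In cluster 9, 11 genes of the list were at least 2-fold higher. The leading genes of cluster 18 included FRZB, another secreted Wnt antagonist.

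VEGFC was also found outside the WIF1 cells. Cluster 7, whose 10 leading genes include the endothelial genes VWF and FLT4, held VEGFC at 110 CPM with WIF1 at 25.8 CPM and COL6A1 at 58.0 CPM. The 1055 barcodes with at least 2 of the 4 endothelial markers held VEGFC at 46.3 CPM, and 42 of these were also WIF1 cells.

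The same rule applied to the other libraries gave 451 barcodes in the male transformer (1.12%), 144 in larval library 1 (0.733%) and 158 in larval library 2 (0.767%). WIF1 over all called barcodes stood at 51.4 CPM in the female (50.4 to 52.4) and 2.79 CPM in the male transformer (2.61 to 2.98), and at 2.05 and 1.69 CPM in the larval libraries. In the barcodes ranked 40000 to 80000 WIF1 stood at 67.3 CPM in the female, 9.89 CPM in the male and 2.76 and 1.75 CPM in the larval libraries, the larval values on 14 and 9 counts. In all 4 libraries the WIF1 level over all called barcodes was no higher than in these shallow barcodes. Of the female WIF1 cells, 36.2% had a single WIF1 count, against 75.2% of the male barcodes and 91.0% and 94.3% of the larval ones. The larval barcodes that met the rule had median depths of 22710 and 31486.5 counts, against 5420 and 5877 in the other called barcodes of their libraries, and 8.33% and 3.80% of them had at least 1% of their counts from the 5 oocyte-like genes. The part of depth in the shares was not tested, nor was that of the live-cell sort that preceded capture.

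The male and larval barcodes of the rule differed in their other genes. In the male transformer 19 of the 25 genes were at least 2-fold higher in the barcodes of the rule than in the other called barcodes, where 3.83% of genes were. COL6A1 had 77.7 CPM in the male barcodes of the rule and 13.9 CPM in the other male barcodes. ENPP2 was among those of the 25 that did not pass 2-fold in the male, with 32.3 CPM against 19.3 CPM. In larval libraries 1 and 2, 0 of the 25 were at least 2-fold higher, where 4.92% and 6.38% of genes were. COL6A1 had 63.1 and 45.7 CPM in the larval barcodes of the rule and 424 and 368 CPM in the other larval barcodes. In 24 of the 25 genes the log2 ratio was above 0 in both transformer libraries and below 0 in both larval libraries, and LOC116940836 was above 0 in all 4.

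**Figure D4:**
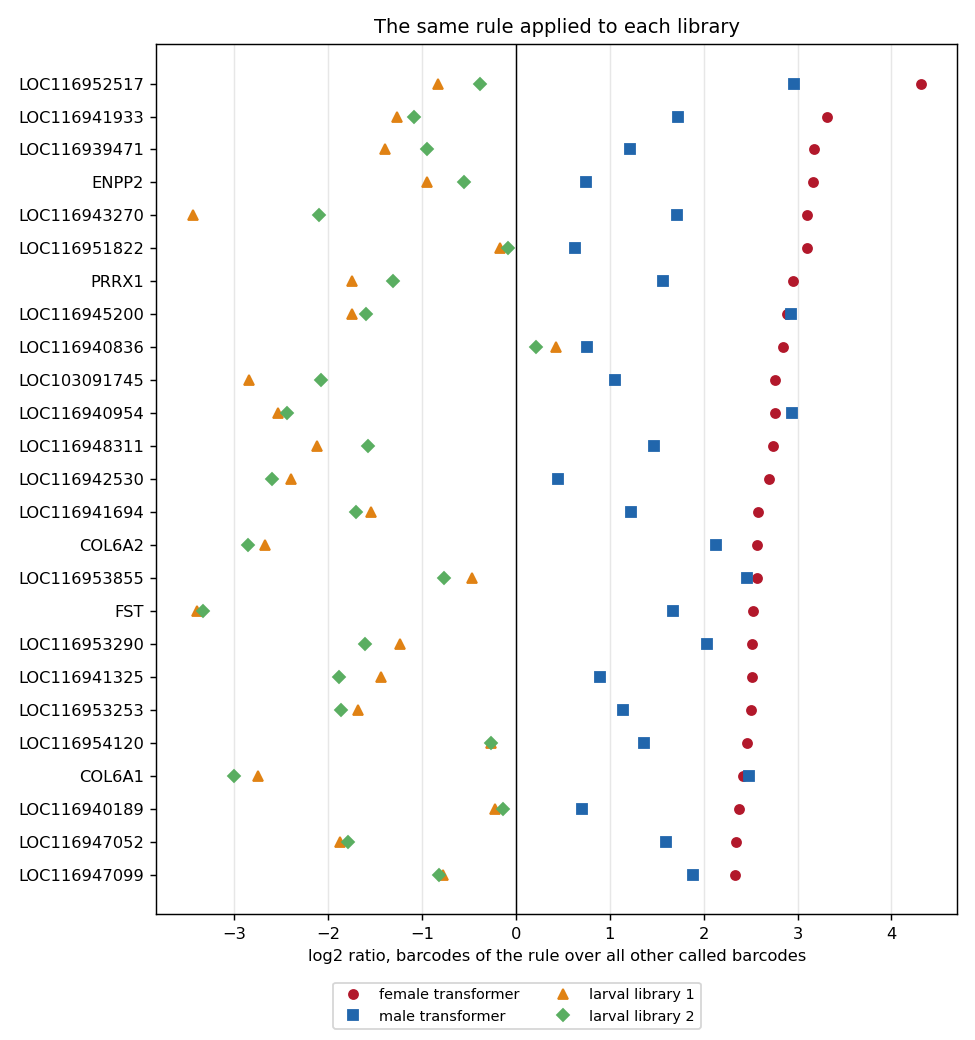
The log2 ratio of barcodes that met the rule over all other called barcodes of the same library for the 25 genes, 1 point per gene and library. In 24 of the 25 genes both transformers lay above 0 and both larval libraries below 0.

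Barcodes were also chosen in each library by COL6A1 and COL6A2 alone, a choice made after the data were seen that uses none of the rule's genes. They numbered 4576 in the female transformer (14.96% of called), 1039 in the male transformer (2.58%), and 4064 and 4131 in larval libraries 1 and 2 (20.7% and 20.1%). Both genes were among the 25 ranked highest in the female WIF1 cells, so the choice was not independent of those cells. The full rule was met by 1385 of the female barcodes so chosen and by 86 of the male ones. It was met by 43 of those from larval library 1 and by 41 from larval library 2. WIF1 in the collagen VI barcodes stood at 236 CPM in the female transformer (230.4 to 242), 36.1 CPM in the male transformer (32.0 to 40.7), 2.12 CPM in larval library 1 (1.71 to 2.61) and 1.69 CPM in larval library 2 (1.33 to 2.10). After thinning, WIF1 was expected in 28.7%, 6.42%, 0.421% and 0.303% of these barcodes in the same order, against 42.1%, 10.2%, 2.09% and 1.72% unthinned. The female collagen VI barcodes had a median depth of 4646.5 counts, the lowest of the 4 libraries, where the highest was 6191.

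The other marker genes of the rule were also highest in the female collagen VI barcodes. RBP4 had 1759 CPM in the female, 466 CPM in the male and 67.4 and 78.1 CPM in the larval libraries. In the remaining barcodes it had 199.8 CPM in the female, 196.8 CPM in the male and 72.3 and 112 CPM in the larval libraries. LOC116940689 had 1005 CPM in the female, 252 CPM in the male and 66.9 and 63.9 CPM in the larval libraries. In the remaining barcodes it was highest in the female too, with 337 CPM, 11.6 CPM in the male and 61.1 and 67.7 CPM in the larval libraries. VEGFC had 36.8 CPM in the female, 9.87 CPM in the male and 7.78 and 8.17 CPM in the larval libraries. In the remaining barcodes VEGFC had 8.54 CPM in the female, 0.629 CPM in the male and 3.37 and 3.22 CPM in the larval libraries. COL6A1, used for the choice, did not follow that order, with 520 CPM in the female, 309 CPM in the male and 1571 and 1430 CPM in the larval libraries. PRRX1 had 69.5 CPM in the female, 34.5 CPM in the male and 30.1 and 29.0 CPM in the larval libraries. ENPP2 was 66.0 CPM in the female and 79.4 CPM in the male, and 14.5 and 13.5 CPM in the larval libraries. In larvae the collagen VI barcodes held WIF1 at about the level of the remaining barcodes, 2.12 against 2.03 CPM in library 1 and 1.69 against 1.69 CPM in library 2, while in the female they held 236 against 21.8 CPM.

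**Figure D5:**
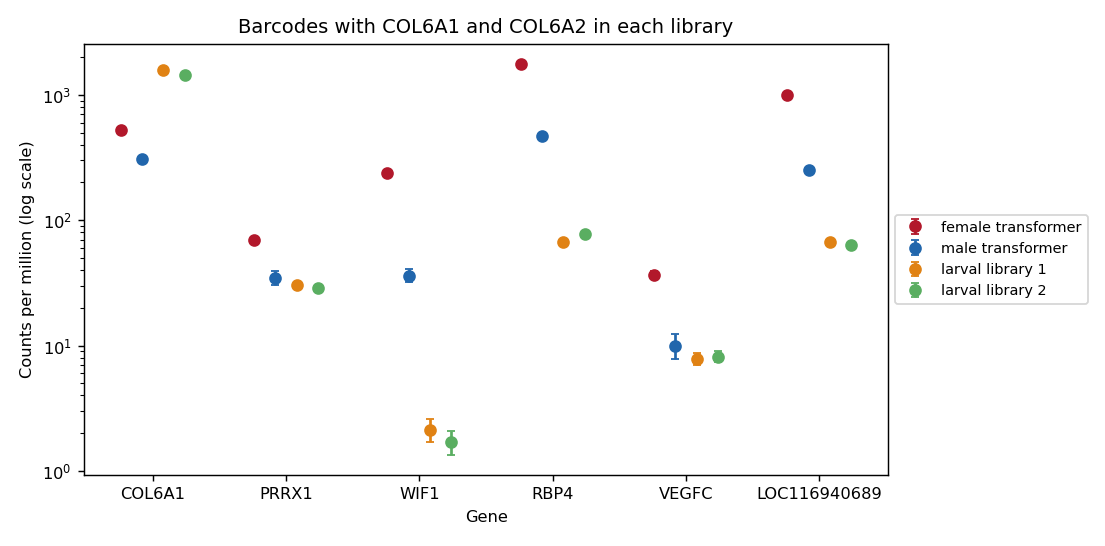
CPM (log axis) of 6 genes in barcodes with COL6A1 and COL6A2, 1 point per library with exact 95% Poisson intervals for counting error. WIF1 stood at 236 CPM in the female transformer, 36.1 CPM in the male transformer and 2.12 and 1.69 CPM in the larval libraries, where COL6A1 was 1571 and 1430 CPM.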

How the data were processed

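Dissociated gonad cells were sorted for live cells and made into PIPseq 3′ libraries, per the labels' protocols. The deposited matrices hold whole-number counts per feature and barcode, per the file headers. The aligner, counting tool, genome build, annotation, and whether a count is a molecule or a read are not given in the sources used here. No cell filter had been applied: the deposited barcodes had a median of 1 count.

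A barcode was called with at least 250 genes and 5 times 375 counts, the highest of the 4 background medians (barcodes ranked 40000 to 80000). Counts were summed over the barcodes of a set and given as CPM, the count relative to the set's total, over the 21967 features without the 24 that carry only a number, which held 2.53% of the counts of called female barcodes. LOC numbers were looked up in the RefSeq table (assembly UKy_Petmar_22M1.pri1.0), and 688 received a symbol. That table was used for names and neighbours only.

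The log2 ratio of 2 sums had 0.5 added to each sum. Genes needed 50 counts in both sets together, and called means at least 2-fold. The WIF1 cells come from 1 library, so their description has no test, and the values set side by side across the 4 libraries were not tested. No p-value is given. The ratio was tested on simulated sums drawn from a shared profile, and its interval was not. That simulation held no choice of cells by the rule and no doublets, so it says nothing about their part in the ratios. Shares have exact (Clopper-Pearson) 95% binomial intervals, levels exact Poisson intervals and ratios exact conditional binomial intervals. All cover counting error only. Thinned shares are the share of barcodes expected to hold a count after each barcode is reduced to the count minimum.

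Clusters were made from called female barcodes without the 6 genes of the rule (2000 variable genes, 30 principal components, 15 neighbours, leidenalg 0.10.2 at resolution 1). Doublets were marked by a Scrublet-type score and kept, and removing them was one of the alternatives.

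The members, the gene lists and the comparisons were chosen with earlier results of these data known. Named genes were the 25 with the highest log2 ratio among genes held by at least 10% of the WIF1 cells, the 10 with the lowest among genes held by at least 10% of the other barcodes, the genes of the rule, and the 3 highest and 3 lowest of each list. Where another member of a list is named, it was chosen after its values were seen. The 24 lists were matched by symbol, and most of their members had no feature with that name. Python 3.11.15 with numpy 2.4.6 and scipy 1.17.1 was used.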

Additional observations from a re-analysis of the deposited data

Results flagged for a closer look

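For 24 of the 25 genes with the highest ratio in the female, barcodes of the rule were above the other barcodes in both transformer libraries and below them in both larval libraries. The mean log2 ratio of the transformers minus that of the larval libraries was 2.71 for ENPP2, 3.79 for PRRX1, 5.11 for COL6A2, 5.47 for FST and 5.33 for COL6A1. These differences were not tested, and the 25 genes were chosen on the female values. The FST difference rests on few counts among barcodes of the rule: 22 from the male transformer, 5 from larval library 1 and 7 from larval library 2. In the larval libraries the barcodes of the rule were deeper than the others (medians of 22710 and 31486.5 counts against 5420 and 5877), and the part of depth was not tested.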

How the results depend on the processing

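Over 15 alternatives the number of WIF1 cells ran from 1286 to 3285, with 1286 at a count minimum 2 times as high and 1653 at 2 or more WIF1 counts. The genes at least 2-fold higher numbered 509 to 1660, and those at least 2-fold lower 982 to 2878. With 5 in place of 0.5 added to each sum they were 1660 and 982, since the added count weighs more in the smaller sum. In the WIF1 cells of clusters 6 and 9, an alternative chosen after the data were seen, they were 1349 and 2878, and the cause was not tested. Between 7 and 10 of 12 stromal genes passed 2-fold in each alternative, and the lowest log2 ratio of any of the 25 highest genes was 2.00. LOC116958516 and LOC116956104 reversed to 0.53 and 0.42 without the UPK3A condition, and no other of the 25 highest and 10 lowest genes changed sign among 525 values. Of the 525 values, 238 kept their sign but lay outside the gene's counting interval, so those intervals do not cover the choice of processing. In the comparison with UPK3A and RBP4 barcodes, leaving out the oocyte-gene barcodes, also chosen after the data were seen, moved the genes at least 2-fold lower in WIF1 cells to 223, against 1391 with them. No paired analysis was possible because the labels match no library to another, and no result came from a test. Genes with few counts, such as TWIST2 with 11 in WIF1 cells, are limited by depth.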
